A study of Rattus norvegicus with 16 samples.

Results

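The comparison is between cells that adhered to the AT-II surface at day 4 and at day 2 after implants were placed in rat tibiae. AT-II is a titanium surface that is microrough and has no nanoscale features, while the other surface of the study, AT-I, carries nanoscale features. The arrays were chosen by their titles, which gave 8 of the 16 arrays of the series, 4 for AT-II day 2 and 4 for AT-II day 4, and the comparison covered all 17245 genes that the array's annotation names singly. Both groups were male Sprague Dawley rats of 326 to 350 g, and the labels give no age. Each day had its own 4 rats. Every rat had 2 implants per tibia, AT-II in one leg and AT-I in the opposite leg, assigned at random. RNA from the 2 AT-II implants of a tibia, rinsed in cold PBS, formed 1 sample. All rats of both days had the same surgery, in which holes were drilled in the bone under ketamine, xylazine and lidocaine with epinephrine. All were given ketoprofen, a cyclooxygenase inhibitor, for 48 hours after it. That span ended at the retrieval of day 2, so time since implant placement and time since ketoprofen cannot be told apart. The samples are whatever cells stayed on the metal, so fewer cells of a type and less RNA per cell cannot be told apart in any value below.

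Of all 120 pairs of arrays, AT-II day 2 replicates 2 and 3 were the most alike (r = 0.9947, against at most 0.9921 in any other pair). They were averaged and counted as 1 sample, which left 3 samples at day 2 and 4 at day 4. Values are RMA expression levels on a scale taken as log2, on which a difference of 1 is a change of 2-fold. Where a gene's values are listed, the day 2 values are those of replicate 1, of replicates 2 and 3 averaged and of replicate 4, and the day 4 values are those of replicates 1 to 4. Precision is limited by how few arrays each group has. A level of one gene is never set against that of another, since each has its own probes.

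A hole drilled in bone fills first with blood and is entered by neutrophils and macrophages, and mesenchymal stromal cells follow. Stromal cells that take the osteoblast path switch on the transcription factors RUNX2 and then osterix (the product of Sp7). They secrete type I collagen, which must be hydroxylated, trimmed and cross-linked, and then load it with mineral by means of phosphatases and acidic phosphoproteins. Osteoblasts that bury themselves become osteocytes.

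Defining markers of several cell types were looked at first, as levels on each day. Neutrophil S100a9 lay between 12.54 and 12.98 at day 2 and between 12.53 and 12.72 at day 4. Macrophage C1qa lay between 9.68 and 9.87 at day 2 and between 9.59 and 9.85 at day 4, and Csf1r, the receptor for macrophage colony-stimulating factor, between 10.56 and 11.40 and between 10.88 and 11.45. Haemoglobin Hbb of red cells lay between 13.42 and 13.60, then between 13.25 and 13.44. In each of these 4 genes the days overlapped. They are single members of their lists, which are described below. The neutrophil list had 3 of 28 differences above 0 (median -0.40), the erythroid list 1 of 24 (median -0.46) and the macrophage list 15 of 29 (median 0.00). The osteoblast markers Runx2, Sp7, Bglap and Alpl passed the test between the days and are described below. The osteocyte markers Sost, Mepe and Fgf23 did not pass (differences of 0.50 ± 0.15, 0.25 ± 0.16 and -0.57 ± 0.20, SE; adjusted p = 0.0928, 0.567 and 0.178 in limma). The defining markers Acp5, Kdr, Pecam1, Cd79a and Myh4 were not analysed here. The deposited values hold no detection calls, so a low value cannot be told from absence.

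Most genes that passed between day 2 and day 4 on AT-II were higher at day 4, and the rises were led by genes of bone formation. Over all genes there was no such lean, with 6942 of 17245 differences above 0. Of the 17245 genes tested in limma, 575 (3.33%) differed, of which 540 (3.13%) were higher at day 4 and 35 (0.203%) were lower, at a Benjamini-Hochberg adjusted p under 0.05. The rises ran from 0.44 to 3.85 with a median of 1.06, and 291 of them were of at least 2-fold and 58 of at least 4-fold. The falls were small, from -0.40 to -1.27, and 1 of them reached 2-fold. In 574 of the 575 genes the samples of the days did not overlap. For scale, over all genes the samples did not overlap in 8.74% with day 4 above and in 7.63% with day 4 below, and the median difference was -0.05. When each array was first centred on its own median, which moved the median of all genes to -0.16, the counts were 366 higher and 141 lower, so that 72.2% of the calls were rises, against 93.9% without centring.

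The number of genes passing depended on single samples. Without AT-II day 2 replicate 1 it was 219 higher and 4 lower, without the averaged day 2 sample 289 and 5, without AT-II day 4 replicate 1 it was 308 and 4, and without AT-II day 4 replicate 3 it was 347 and 7. Without AT-II day 4 replicate 4 the falls were 16 and the rises 461. Of the 540 rises, 207 passed in each of the 7 fits that left out 1 AT-II sample, and of the 35 falls, 1 did. AT-II day 2 replicate 1 had the lowest of the 3 day 2 values in 401 of the 540 genes that rose (74.3%), against 39.9% of all genes. AT-II day 4 replicate 1 had the highest of the 4 day 4 values in 391 of them (72.4%), against 21.5% of all genes. The interquartile range of the arrays was 3.05 to 3.43 at day 2 and 3.10 to 3.42 at day 4. Most genes described singly below are among the 207, and the samples whose removal ended a call are named for the others.

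**Figure D1:**
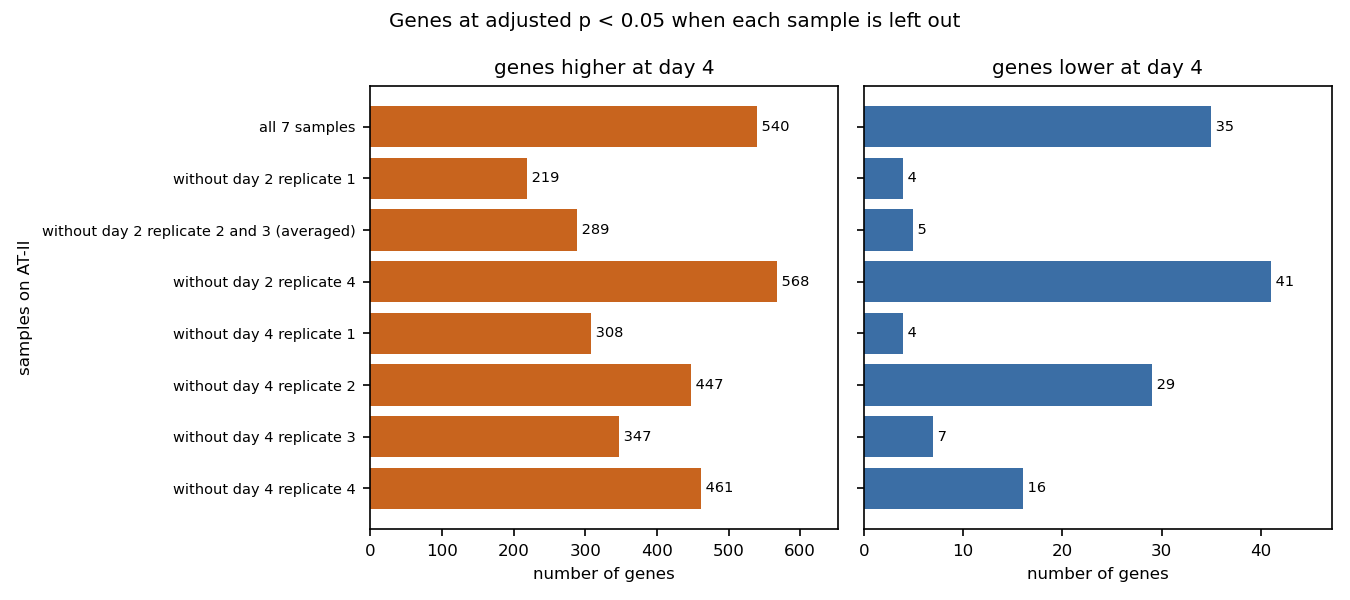
Genes that passed at an adjusted p under 0.05 (horizontal axes, number of genes) with all 7 AT-II samples and with each sample left out, higher at day 4 on the left and lower on the right. The count of rises runs from 219 without day 2 replicate 1 to 568 without day 2 replicate 4, against 540 with all samples.

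Among transcription factors of osteoblast differentiation, 13 of the 29 measured rose on AT-II (44.8%, against 3.13% of all genes) and 0 fell. The other 16 did not pass, and the median difference was 0.68. Without AT-II day 2 replicate 1, 7 of the 29 rose, against 219 of all 17245 genes. Runx2, which commits stromal cells to the osteoblast lineage, stood at 7.20, 7.45 and 7.82 at day 2 and at 9.02, 8.70, 8.91 and 8.68 at day 4, a rise of 1.34 ± 0.18 (SE; adjusted p = 0.000527). Sp7, which acts after Runx2, stood at 6.19, 6.53 and 7.29 and then at 8.86, 8.47, 8.48 and 8.23, a rise of 1.84 ± 0.27 (adjusted p = 0.000778). In both genes each day 4 sample was above each day 2 sample, and the days were separate in 574 of the 575 genes that passed. The homeobox genes Dlx5 and Dlx3, which act upstream of Sp7 and of matrix genes, rose by 1.93 ± 0.26 and 1.96 ± 0.25. In Dlx5 the day 4 values spread more, at 8.50, 7.09, 8.11 and 8.04, with replicate 2 the lowest and still above the day 2 values of 5.89, 5.91 and 6.22. Creb3l1, a membrane-bound factor of the endoplasmic reticulum that drives type I collagen transcription in osteoblasts, rose by 2.22 ± 0.28 (adjusted p = 0.000286), from 7.16, 7.80 and 8.32 to 10.06, 10.05, 10.09 and 9.71. Zfhx4, a large zinc finger and homeobox factor, rose by 1.75 ± 0.22. These 6 genes kept their call with each sample left out. Twist1, which restrains RUNX2, differed by 1.17 ± 0.34 and did not pass (adjusted p = 0.0872), and day 2 replicate 4 at 7.89 was above day 4 replicate 2 at 7.80.

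Promoters of 3 genes are shown because RUNX2 binds a short core sequence and Bglap, the gene of osteocalcin, is its classical target. The stretches are the 250 bases before the annotated start of each gene in RefSeq (rat build GRCr8), read in the gene's direction, with a match to the RUNX core TGTGGT or its reverse complement in capitals.
Bglap, chr2:176137319-176137568, minus strand: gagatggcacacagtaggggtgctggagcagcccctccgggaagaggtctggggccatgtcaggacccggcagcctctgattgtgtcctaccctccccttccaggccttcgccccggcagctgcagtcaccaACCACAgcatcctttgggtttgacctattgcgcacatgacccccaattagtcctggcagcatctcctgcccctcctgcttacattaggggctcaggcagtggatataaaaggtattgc
Runx2, chr9:23664808-23665057, plus strand: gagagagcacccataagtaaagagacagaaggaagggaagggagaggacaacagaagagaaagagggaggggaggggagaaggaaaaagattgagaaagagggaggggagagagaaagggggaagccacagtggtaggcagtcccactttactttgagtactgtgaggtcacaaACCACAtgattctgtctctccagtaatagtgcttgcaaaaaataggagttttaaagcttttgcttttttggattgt
Dmp1, chr14:5840085-5840334, minus strand: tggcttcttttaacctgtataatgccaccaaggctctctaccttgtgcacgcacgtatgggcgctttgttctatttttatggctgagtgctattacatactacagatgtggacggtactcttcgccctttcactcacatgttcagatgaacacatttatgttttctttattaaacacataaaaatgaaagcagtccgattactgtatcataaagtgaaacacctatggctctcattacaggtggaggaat
Counted from the gene's start, the match begins at -118 in Bglap and at -76 in Runx2, and the Dmp1 window holds none. Runx2 was added after its match had been seen. Among bone mineral genes with a window, those with the largest rises that passed were Dmp1, Bglap, Ifitm5 and Alpl. The windows of Ifitm5 and Alpl hold no match either and are not shown. Windows of this length were at hand for 14045 of the genes tested, for 401 of the 540 genes that rose and for 30 of the 35 that fell. On either strand, the RUNX core lay in 11.7% of all windows, in 7.98% of those of the genes that rose and in 13.3% of those of the genes that fell. The homeodomain core TAATTA lay in 4.01% of all windows and in 0.998% of those of the genes that rose, the AP-1 site TGANTCA in 5.49% and 3.99%, and the GC box GGGCGG in 46.4% and 59.1%. Each motif was counted on its own and may overlap another, a match is not a bound site, and these shares were not tested.

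Genes of bone mineral and its matrix included Phex, the gene with the largest rise of all 17245 (3.85 ± 0.42). In that list 9 of 24 genes rose (37.5%, against 3.13% of all genes) and 0 fell. The median was 0.84, and 5 rose without AT-II day 2 replicate 1. Dmp1, an acidic phosphoprotein that binds calcium, stood at 5.74, 7.06 and 7.62 at day 2 and at 10.99, 10.01, 10.38 and 9.99 at day 4 (3.53 ± 0.39, adjusted p = 9.77e-05). Phex, the endopeptidase whose loss causes X-linked hypophosphataemia, went from 4.74, 5.36 and 6.39 to 10.16, 8.43, 9.60 and 9.19. Ifitm5, an osteoblast membrane protein mutated in a form of brittle bone disease, went from 6.88, 7.70 and 8.28 to 10.46, 10.25, 10.44 and 9.96. In these 3 genes day 2 replicate 1 was the lowest sample, and the lowest day 4 value was above the highest day 2 value by more than 1.5 on the log2 scale. Bglap spread most at day 4, at 12.17, 9.31, 11.59 and 11.25 after 7.00, 7.71 and 8.19 at day 2, with replicate 2 far below the others. Its rise of 3.44 ± 0.65 (adjusted p = 0.00635) lost its call without AT-II day 2 replicate 1 (3.13, adjusted p = 0.0562). Alpl, the tissue-nonspecific alkaline phosphatase that frees phosphate for mineral, rose from 9.98, 9.85 and 9.47 to 11.06, 11.05, 11.24 and 10.56 (1.21 ± 0.28, adjusted p = 0.0243). That call ended without any 1 of 6 samples, the exception being AT-II day 4 replicate 4 (adjusted p = 0.0594 to 0.0945). Ibsp, which encodes bone sialoprotein, did not pass although its days did not overlap. Its values were 7.02, 10.15 and 10.57 at day 2 and 11.83, 11.91, 11.90 and 11.65 at day 4 (2.58 ± 0.78, adjusted p = 0.102), with day 2 replicate 1 far below the other day 2 samples.

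In the list of osteocyte and dendrite genes 7 of 17 rose (41.2%, against 3.13% of all genes) and 0 fell (median 0.57). Without AT-II day 2 replicate 1, 6 rose. Besides Phex and Dmp1 they included Ptprz1, a receptor phosphatase (2.84 ± 0.34), and Dkk1, a secreted inhibitor of Wnt signalling made by osteoblasts and osteocytes (2.70 ± 0.33). Dkk1 stood at 5.38, 5.77 and 6.10 at day 2 and at 9.07, 8.01, 8.46 and 8.27 at day 4. Irx5, a homeobox gene, rose by 1.55 ± 0.23, and Tnfrsf19, a receptor of the tumour necrosis factor family, by 1.24 ± 0.19. These 4 held with each sample left out, whereas Sost, the product of mature osteocytes, stood at 5.63, 5.79 and 6.07 and then at 6.26, 6.10, 6.59 and 6.37 and did not pass.

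**Figure D2:**
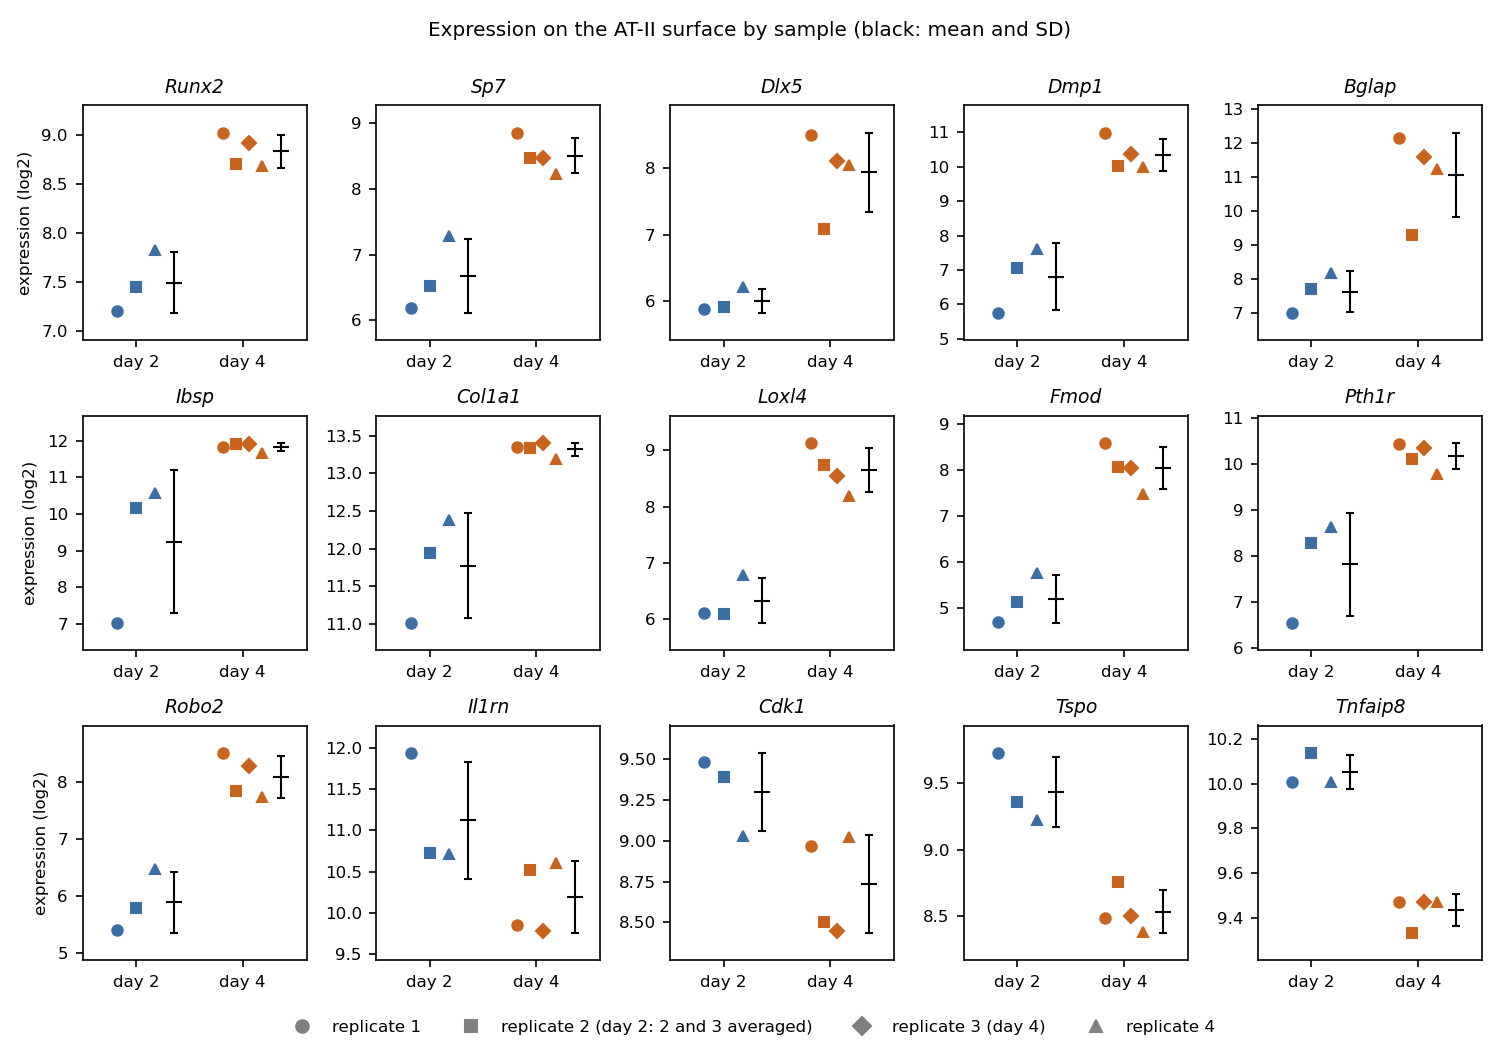
Expression (vertical axes, log2) of 15 genes in the 3 AT-II day 2 samples (blue) and the 4 AT-II day 4 samples (orange), with the mean and SD in black and the replicates marked by symbol. In Ibsp and Pth1r day 2 replicate 1 sits well below the other day 2 samples, and in Bglap and Dlx5 day 4 replicate 2 sits below the other day 4 samples.

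Among fibrillar and associated collagens 9 of 25 genes rose (36%, against 3.13% of all genes) and 0 fell, with a median of 0.59. Of these, 3 rose without AT-II day 2 replicate 1 and 4 without the averaged day 2 sample. The genes of type XI collagen, which sets the width of fibrils, rose by 2.65 ± 0.35 (Col11a1) and 1.44 ± 0.18 (Col11a2). Col11a1 went from 6.28, 7.40 and 8.17 to 10.32, 9.83, 10.00 and 9.58. Col24a1, a fibrillar collagen of developing bone, rose by 1.80 ± 0.23 (adjusted p = 0.000301), from 6.38, 6.17 and 6.04 to 8.42, 8.28, 7.72 and 7.55. Each of these 3 held with every sample left out. Col1a1, of the main collagen of bone, stood at 11.01, 11.94 and 12.38 at day 2 and at 13.35, 13.33, 13.40 and 13.19 at day 4, a rise of 1.54 ± 0.35 (adjusted p = 0.0230). The call ended without AT-II day 2 replicate 1 (1.16, adjusted p = 0.181), the averaged day 2 sample (adjusted p = 0.0686) or AT-II day 4 replicate 1, 2 or 3 (adjusted p = 0.0694, 0.0524 and 0.0636).

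The enzymes that modify and assemble collagen gave the list with the largest share of rises, 15 of 31 genes (48.4%, against 3.13% of all genes). There were 0 falls, and the median was 0.89. Without AT-II day 2 replicate 1 that rank was lost, with 7 of 31 rising against 6 of 17 osteocyte genes, 7 of 29 transcription factors and 12 of 51 axon guidance genes. Loxl4, a lysyl oxidase that cross-links collagen and elastin, stood at 6.10, 6.09 and 6.79 at day 2 and at 9.14, 8.74, 8.54 and 8.19 at day 4 (2.32 ± 0.24, adjusted p = 8.49e-05). Lox, the founding member of that family, stood at 8.44, 8.71 and 9.71 and then at 11.02, 10.60, 10.82 and 10.45. The proteases that cut the propeptides from procollagen rose too: Adamts2 by 2.22 ± 0.28 and Adamts14 by 1.48 ± 0.24 at the amino end, and Bmp1 by 1.54 ± 0.24 at the carboxy end. Fkbp10, a chaperone and prolyl isomerase of the endoplasmic reticulum, rose by 2.17 ± 0.33, from 7.76, 8.75 and 9.43 to 11.08, 10.75, 10.92 and 10.50. P3h1, which hydroxylates a proline of type I collagen, rose by 1.47 ± 0.26. Each of these genes kept its call in every fit that left out a sample. Their days did not overlap, which held for 574 of the 575 genes that passed. Crtap, the partner of P3h1, rose by 1.27 ± 0.23 (adjusted p = 0.00555), and its call ended without AT-II day 2 replicate 1 (1.08, adjusted p = 0.0527).

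Small leucine-rich proteoglycans, which bind collagen fibrils and growth factors, had the highest median of the lists, 1.37. Of the 13 genes 6 rose (46.2%, against 3.13% of all genes) and 0 fell. Of the 6, 3 rose without AT-II day 2 replicate 1. Fmod (fibromodulin) went from 4.70, 5.12 and 5.75 to 8.59, 8.07, 8.04 and 7.48 (2.86 ± 0.31, adjusted p = 9.41e-05). Omd (osteomodulin), which binds hydroxyapatite, went from 4.83, 6.48 and 6.78 to 9.75, 8.27, 9.60 and 9.40. Aspn (asporin) went from 4.93, 7.26 and 8.02 to 9.82, 9.50, 9.90 and 10.05, and its rise was 3.08 ± 0.57 with the brightest of its array rows and 1.56 with their mean. All 3 were lowest in day 2 replicate 1 and held with each sample left out. Among 36 genes that build glycosaminoglycans and proteoglycans, 8 rose (22.2%) and 0 fell (median 0.28). Without AT-II day 2 replicate 1 or without the averaged sample, 3 rose. Sdc3, a cell-surface heparan sulphate proteoglycan, rose by 1.26 ± 0.16, from 9.31, 9.09 and 9.29 to 10.70, 10.33, 10.60 and 10.32. Chsy3, a chondroitin sulphate synthase, rose by 1.44 ± 0.23.

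Provisional and matricellular proteins gave 6 rises (17.6%, against 3.13% of all genes) and 0 falls among 34 genes (median 0.19). Without AT-II day 2 replicate 1 there were 3 rises. Mfap2, a microfibril protein, stood at 6.15, 6.03 and 6.15 at day 2 and at 7.76, 7.35, 8.43 and 7.75 at day 4 (1.71 ± 0.21, adjusted p = 0.000272). Ltbp3, which holds latent transforming growth factor beta in the matrix, rose by 1.18 ± 0.18. Ccn4, a secreted target of Wnt signalling, rose by 1.70 ± 0.28 with the brightest of its array rows and by 0.85 with their mean. Among matrix proteases and their inhibitors 12 of 38 rose (31.6%) and 0 fell (median 0.50), and 5 rose without AT-II day 2 replicate 1. The gelatinase Mmp2 went from 7.29, 8.46 and 9.04 to 11.04, 10.58, 10.93 and 10.50 (2.50 ± 0.40, adjusted p = 0.00159), and the membrane-bound Mmp16 rose by 2.66 ± 0.39. Reck, a membrane-anchored inhibitor of metalloproteinases, went from 6.14, 6.31 and 6.60 to 7.57, 7.26, 7.49 and 7.26 (1.05 ± 0.13). Serpinf1, which encodes pigment epithelium-derived factor and is mutated in a recessive brittle bone disease, rose by 2.08 ± 0.35.

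Genes of several signalling pathways rose, among them receptors and inhibitors. In the Wnt list 10 of 47 rose (21.3%, against 3.13% of all genes) and 0 fell (median 0.35). Without AT-II day 2 replicate 1, 5 rose. The receptor Lgr4, which takes up R-spondins, went from 6.35, 7.14 and 7.41 to 9.18, 8.56, 8.81 and 8.46 (1.79 ± 0.24, adjusted p = 0.000462). Tcf7, a nuclear partner of beta-catenin, rose by 1.09 ± 0.20, and Dkk3, a relative of Dkk1, by 0.79 ± 0.14. The ligand Wnt10b, which favours osteoblasts over adipocytes, stood at 5.18, 5.09 and 5.05, then at 5.62, 5.72 and 5.75 in day 4 replicates 1, 3 and 4 and higher still in replicate 2 (0.67 ± 0.13, adjusted p = 0.00821), and its call ended when arrays were centred (0.56, adjusted p = 0.0535). The coreceptor Lrp5, whose gain or loss alters bone mass, rose by 0.86 ± 0.16, with a call that ended without AT-II day 2 replicate 1 (0.82, adjusted p = 0.05).

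In the list of bone morphogenetic protein, activin and transforming growth factor beta genes 8 of 46 rose (17.4%, against 3.13% of all genes). In it 0 fell (median 0.17), and 3 rose without AT-II day 2 replicate 1. These 3 dampen or relay the pathway. The decoy receptor Bambi went from 6.16, 6.67 and 7.02 to 8.84, 8.21, 8.53 and 7.95 (1.77 ± 0.29), the inhibitory Smad6 rose by 1.36 ± 0.26, and the receptor-regulated Smad9 rose by 1.07 ± 0.20. The ligand Bmp3 rose by 2.90 ± 0.55, with day 2 values of 5.29, 7.20 and 7.43, and did not pass without AT-II day 2 replicate 1 (2.22, adjusted p = 0.0534). Among fibroblast, platelet-derived and insulin-like growth factor genes 9 of 40 rose (22.5%) and 0 fell (median 0.22), and 4 rose without that replicate. All 4 were receptors: Pdgfra, the platelet-derived growth factor receptor of stromal cells (1.64 ± 0.23), and Fgfr1, Fgfr2 and Fgfr3 (1.63 ± 0.28, 1.84 ± 0.33 and 1.08 ± 0.20). Pdgfra went from 6.63, 7.24 and 7.49 to 9.31, 8.46, 8.72 and 8.57, and Fgfr2 from 6.79, 7.59 and 8.02 to 9.34, 9.23, 9.51 and 9.15.

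The receptors for parathyroid hormone and for vitamin D rose. Pth1r, the receptor for parathyroid hormone, stood at 6.53, 8.28 and 8.62 at day 2 and at 10.43, 10.11, 10.35 and 9.78 at day 4 (2.35 ± 0.45, adjusted p = 0.00648). Vdr, the vitamin D receptor, went from 6.66, 6.92 and 7.07 to 8.66, 8.24, 8.50 and 8.09 (1.49 ± 0.20, adjusted p = 0.000505). In the list of hedgehog, Notch and parathyroid hormone genes 7 of 43 rose (16.3%, against 3.13% of all genes) and 0 fell (median 0.12). Without AT-II day 2 replicate 1, 5 rose. They included Gli3, a transcription factor of the hedgehog pathway (1.06 ± 0.15), and Boc, a hedgehog coreceptor (1.18 ± 0.21). Ptgis, which makes prostacyclin, rose by 2.05 ± 0.31 with the brightest of its array rows and by 1.36 with their mean.

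Transporters, channels and junction proteins of osteoblasts gave 10 rises (25.6%, against 3.13% of all genes) and 0 falls among 39 genes. The median was 0.15, and there were 8 rises without AT-II day 2 replicate 1. Slc8a3, a sodium and calcium exchanger, went from 5.30, 6.10 and 6.37 to 8.91, 8.36, 8.46 and 8.16 (2.55 ± 0.26, adjusted p = 8.49e-05). Slc36a2, a transporter of proline and glycine, went from 5.46, 6.21 and 6.21 to 8.78, 7.94, 8.48 and 8.16 (2.38 ± 0.25). Slc13a5, which carries citrate into cells, stood at 5.47, 7.15 and 7.69 and then at 10.24, 10.21, 10.17 and 9.47. Panx3, a channel of osteoblasts and cartilage cells, stood at 4.71, 7.36 and 8.07 and then at 10.80, 10.40, 10.75 and 10.23. In these 4 genes every day 4 sample was above every day 2 sample, and the days were separate in 574 of the 575 genes that passed. The potassium channel gene Kcnma1 rose by 1.83 ± 0.20 and Tmem119, a membrane protein that promotes osteoblast differentiation, by 2.22 ± 0.30.

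Adhesion genes gave 8 rises (17.8%, against 3.13% of all genes) and 0 falls among 45 (median 0.20). Without AT-II day 2 replicate 1 there were 6 rises. Itga10, a collagen-binding integrin subunit, stood at 4.55, 5.06 and 5.21 and then at 8.52, 7.75, 8.04 and 7.55. The cadherins through which osteoblasts hold to each other rose, Cdh2 by 1.92 ± 0.24 and Cdh11 by 1.24 ± 0.21. So did the protocadherins Pcdh18 (1.90 ± 0.27) and Pcdh7 (1.32 ± 0.17). Cdh2 went from 7.60, 8.18 and 8.33 to 10.34, 9.67, 10.11 and 9.72.

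Genes first known from the guidance of axons formed the list with the most rises. Of 51 measured, 18 rose and 0 fell, which is 35.3% against 3.13% of all genes, and the median was 0.30. Without AT-II day 2 replicate 1, 12 rose. Among ligands, Sema3d, a secreted semaphorin, went from 5.61, 6.10 and 6.06 to 8.55, 7.85, 8.15 and 7.86 (2.18 ± 0.24, adjusted p = 9.58e-05), and Slit3 went from 7.07, 6.82 and 7.22 to 8.89, 8.24, 8.59 and 8.24 (1.45 ± 0.21). The receptors for Slit proteins rose beside it, Robo2 by 2.21 ± 0.26 and Robo1 by 1.49 ± 0.20. Robo2 stood at 5.40, 5.80 and 6.47 at day 2 and at 8.52, 7.85, 8.28 and 7.74 at day 4. Other receptors that rose were Plxnb1, a plexin for semaphorins (1.95 ± 0.23), Unc5b and Neo1, which bind netrins (1.95 ± 0.30 and 1.43 ± 0.21), and Ephb2, an ephrin receptor (1.23 ± 0.17). Each of these 8 genes kept its call with every sample left out. The other 10 genes of the list that rose had differences from 0.86 to 1.77.

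**Figure D3:**
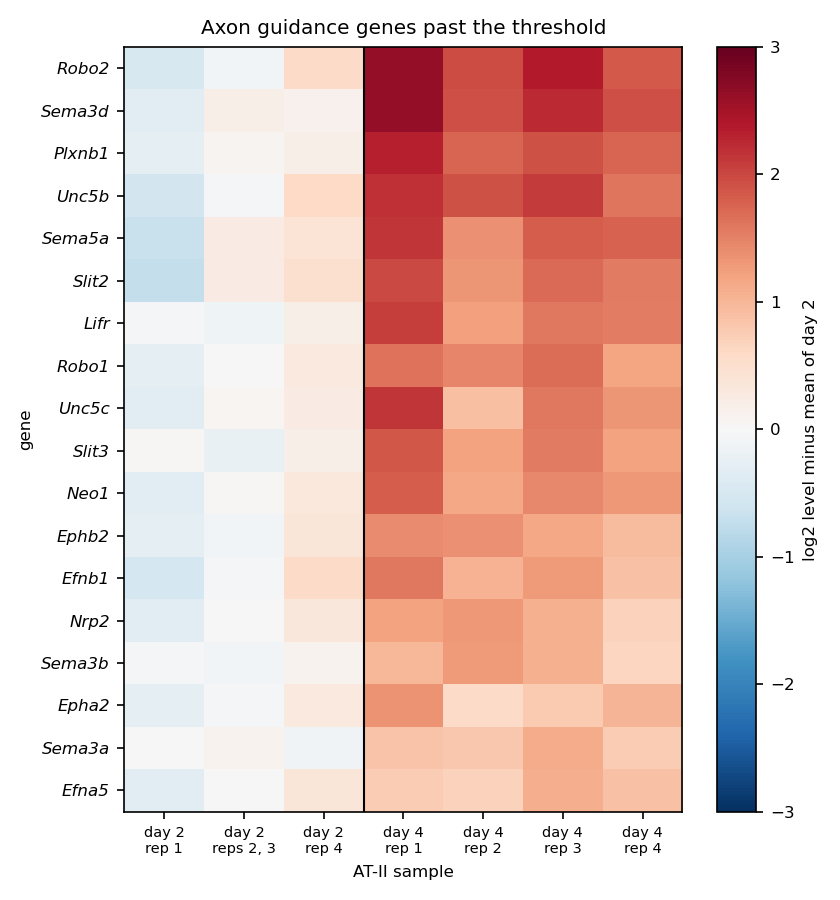
Heat map of the 18 axon guidance genes that passed (rows, ordered by their difference) in the 7 AT-II samples (columns), coloured by the log2 level minus the gene's mean at day 2. Every day 4 sample is above the day 2 mean in every row, and day 4 replicate 1 has the deepest colour in most rows, as in Robo2 and Sema3d.

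The list of the secretory pathway had a median close to that of all genes, although a larger share of its genes rose. Of 49 genes of secretion and of the unfolded protein response 7 rose (14.3%, against 3.13% of all genes) and 0 fell. The median was 0.04, and 2 rose without AT-II day 2 replicate 1. These 2 were Creb3l1, given above, and Kdelr2, which returns chaperones to the endoplasmic reticulum and went from 10.69, 10.81 and 10.99 to 11.62, 11.49, 11.61 and 11.47 (0.72 ± 0.12, adjusted p = 0.00257). Lman1, a cargo receptor for export from the endoplasmic reticulum, and Sec23a, a part of the coat of the exported vesicles that is mutated in a skull ossification disorder, rose by 0.69 ± 0.13 and 0.86 ± 0.16. Both lost their call without AT-II day 2 replicate 1 (adjusted p = 0.0588 and 0.0605).

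Several of the strongest rises were in genes of none of the 42 lists. Rhbdl2, a rhomboid protease that cuts membrane proteins, stood at 5.24, 5.23 and 5.67 at day 2 and at 8.67, 7.69, 8.27 and 7.96 at day 4 (2.77 ± 0.21, adjusted p = 1.11e-05). Gprc5c, an orphan receptor, went from 6.55, 7.08 and 7.37 to 9.74, 9.30, 9.53 and 8.99 (2.39 ± 0.22, adjusted p = 4.94e-05). Cpz, a carboxypeptidase with a Wnt-binding domain, went from 5.85, 6.12 and 6.41 to 8.92, 7.86, 8.71 and 8.34 (2.33 ± 0.25). In these 3 genes the days were separated by more than the range within either day. Fat3, a giant cadherin, rose by 2.50 ± 0.28, Ptprd, a receptor phosphatase, by 2.34 ± 0.27, and Adamts18, a secreted protease, by 2.67 ± 0.41. Ranbp3l, a nuclear export factor for Smad proteins, rose by 2.23 ± 0.27, and Cgref1, a secreted calcium-binding protein, by 2.51 ± 0.41. These 8 genes held with each sample left out.

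**Figure D4:**
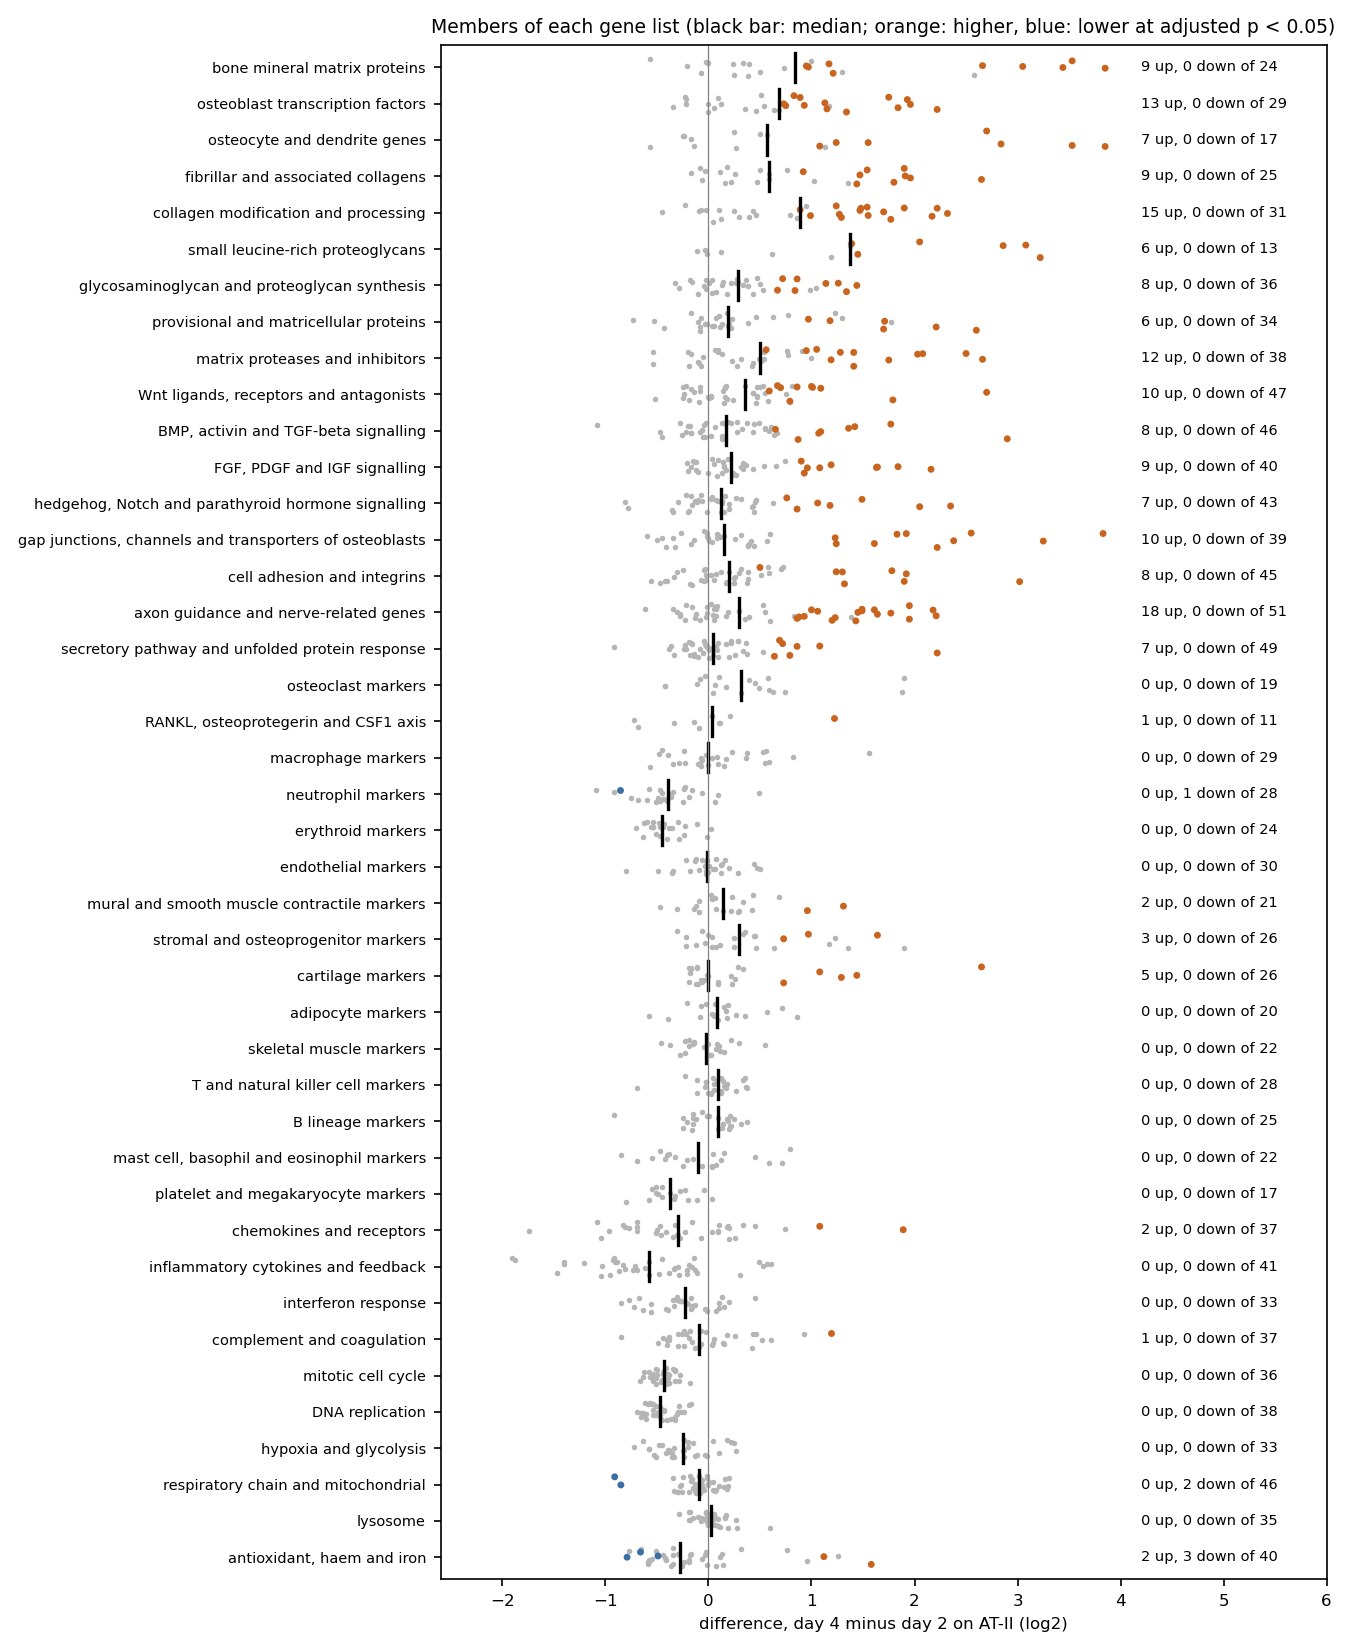
Difference between day 4 and day 2 on AT-II (horizontal axis, log2) for each measured gene of the 42 lists (points, spread vertically for clarity), with the median as a black bar and passing genes in colour; the counts of higher and lower genes stand at the right. Rises fill the upper lists, led by 18 of 51 axon guidance genes and 15 of 31 collagen-modifying genes, and all mitotic and DNA replication genes lie below 0 with none passing.

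Markers of other connective tissue cells were counted beside those of bone. The shares that rose were 11.5% of stromal, 19.2% of cartilage and 9.52% of mural markers, against 3.13% of all genes. Without AT-II day 2 replicate 1, 219 of all 17245 genes rose. Of 26 stromal and osteoprogenitor markers 3 rose (median 0.30), and 1 of them, Pdgfra, did so without AT-II day 2 replicate 1. Of 26 cartilage markers 5 rose (median 0.00), and the 3 that rose without that replicate were Col11a1, Col11a2 and Fgfr3, which other lists hold too. Of the defining cartilage genes, Col2a1 stood at 6.59, 6.16 and 6.28 and then at 6.69, 6.62, 6.68 and 6.41 and did not pass (0.26 ± 0.16, adjusted p = 0.552). Acan, also a defining cartilage gene, rose by 1.29 ± 0.33 (adjusted p = 0.045). Its call held only without AT-II day 2 replicate 4 (adjusted p = 0.0577 to 0.317 without any other sample). Sox9 rose by 0.73 ± 0.19 (adjusted p = 0.0391). That call held only without AT-II day 2 replicate 4 or without AT-II day 4 replicate 2 (otherwise adjusted p = 0.0593 to 0.23). Of 21 mural and smooth muscle markers 2 rose (median 0.14), 1 of them without AT-II day 2 replicate 1, namely Ano1, a chloride channel (0.96 ± 0.17). In limma 0 of 20 adipocyte, 0 of 22 skeletal muscle and 0 of 30 endothelial markers passed, with medians of 0.08, -0.02 and -0.01, and 0, 3 and 3 of them had an unadjusted p under 0.05. Over all 17245 genes 1410 (8.18%) were higher and 826 (4.79%) lower at that threshold. Adipoq, which marks fat cells, lay between 8.48 and 9.32 at day 2 and between 8.74 and 9.68 at day 4, and endothelial Cdh5 between 7.60 and 8.36 and between 7.50 and 8.11.

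Osteoclast markers did not pass, although some had large differences. Of 19 markers 0 passed in limma and 6 (31.6%) were higher at an unadjusted p under 0.05, against 8.18% of all genes, with a median of 0.32 that ran from 0.12 to 0.41 when single samples were left out. Ctsk, the collagenase of osteoclasts, stood at 8.78, 10.10 and 10.34 at day 2 and at 11.55, 11.91, 11.49 and 11.62 at day 4 (1.90 ± 0.53, adjusted p = 0.0645). It passed in 6 of the 13 other settings outside the leave-one-out fits (adjusted p = 0.00717 to 0.0463). Atp6v0d2, a subunit of their proton pump, stood at 5.75, 7.58 and 8.38 and then at 9.02, 9.25, 8.78 and 9.41 (1.88 ± 0.62, adjusted p = 0.141). In both the days did not overlap, and day 2 replicate 1 lay well below the other day 2 samples. Calcr, the calcitonin receptor, stood at 5.04, 5.04 and 5.03 and then at 5.29, 5.50, 5.66 and 5.47 (0.45 ± 0.18, adjusted p = 0.272). In the axis of RANKL, osteoprotegerin and colony-stimulating factor 1, 1 gene of 11 rose (9.09%, against 3.13% of all genes). It was Tnfrsf11b, which encodes the decoy receptor osteoprotegerin (1.22 ± 0.26, adjusted p = 0.0157). Its call ended without AT-II day 2 replicate 1 (1.07, adjusted p = 0.120), the averaged day 2 sample (adjusted p = 0.0680) or AT-II day 4 replicate 3 (adjusted p = 0.0539).

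Among the neutrophil, erythroid, platelet and macrophage lists 1 gene passed. For 28 neutrophil markers the median was -0.40 with 3 differences above 0. At an unadjusted p under 0.05, 7 of the 28 (25%) were lower and 1 (3.57%) was higher. After adjustment 1 (3.57%, against 0.203% of all genes) fell, Stfa2l1, a stefin of myeloid cells. Stfa2l1 stood at 6.90, 7.39 and 7.23 at day 2 and at 6.42, 5.86, 6.19 and 6.78 at day 4 (-0.86 ± 0.22, adjusted p = 0.0453), and its call held only without AT-II day 4 replicate 4 (adjusted p = 0.0732 to 0.225 without any other sample). For 24 erythroid markers the median was -0.46, for 17 platelet and megakaryocyte markers -0.37 and for 29 macrophage markers 0.00. In these 3 lists 0 genes passed in limma, and 0, 0 and 3 had an unadjusted p under 0.05. The mean level of the neutrophil list was 10.47, 10.40 and 9.88 in the day 2 samples and 9.65 to 9.97 at day 4, and that of the erythroid list 10.69, 10.32 and 9.69, then 9.03 to 10.28. In both lists day 2 replicate 4 lay within the range of day 4. The mean level of the macrophage list was 9.24, 9.78 and 9.94, then 9.60 to 9.97. The lists of T and natural killer cells, of B cells, of mast cells, basophils and eosinophils, and of the lysosome had medians of 0.09, 0.09, -0.10 and 0.02, with 0 genes passing and 1 in each at an unadjusted p under 0.05. The part of these shifts in the rises of bone genes was not tested.

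Inflammatory genes lay lower at day 4 in most cases, and none passed. Of 41 inflammatory cytokine and feedback genes 0 passed in limma, while 8 (19.5%) were lower and 3 (7.32%) higher at an unadjusted p under 0.05, against 4.79% and 8.18% of all genes. The median difference was -0.58, and 5 of the 41 differences were above 0. The median ran from -0.84 to -0.20 when single samples were left out. The mean level of the list was 9.04 in AT-II day 2 replicate 1 and 7.84 and 7.73 in the other day 2 samples, against 7.40, 7.50, 7.52 and 8.10 at day 4. Replicate 1 was the highest day 2 sample in 30 of the 41 genes (73.2%), against 37.0% of all genes. Il1rn, the antagonist of the interleukin 1 receptor, stood at 11.94, 10.72 and 10.71 and then at 9.85, 10.52, 9.78 and 10.61 (-0.93 ± 0.40, adjusted p = 0.312). Clec4e, a C-type lectin of macrophages and neutrophils, stood at 11.72, 10.22 and 10.46 and then at 9.34, 9.20, 9.54 and 10.29 (-1.21 ± 0.42, adjusted p = 0.178), so that the days overlapped in day 4 replicate 4. Among 37 chemokines and receptors 2 (5.41%, against 3.13% of all genes) rose and 0 fell, with a median of -0.30. At an unadjusted p under 0.05, 7 of them (18.9%) were lower and 3 (8.11%) higher. Both are scavenging receptors that take up chemokines without the usual signalling: Ackr4, which went from 6.96, 7.43 and 7.98 to 9.82, 8.65, 9.36 and 9.58 (1.89 ± 0.36, adjusted p = 0.00635), and Ackr3 (1.08 ± 0.27, adjusted p = 0.0405). The call of Ackr4 ended without AT-II day 2 replicate 1 (1.65, adjusted p = 0.0594). That of Ackr3 held only without AT-II day 4 replicate 2, with adjusted p = 0.0631 to 0.178 without any other sample. Interferon response genes had a median of -0.23 over 33 genes, with 0 passing in limma and 1 at an unadjusted p under 0.05. Of 37 complement and coagulation genes 1 (2.70%, against 3.13% of all genes) rose, and the median was -0.09.

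The genes that fell were few and mixed. Tnfaip8, which restrains cell death, was the one whose call held with each sample left out. It stood at 10.01, 10.14 and 10.01 at day 2 and at 9.47, 9.33, 9.47 and 9.47 at day 4 (-0.62 ± 0.12, adjusted p = 0.00635). Genes of white blood cells outside the marker lists were among the falls, such as Cst7 (-0.77 ± 0.18, adjusted p = 0.0221) and Ncf4 (-0.67 ± 0.17, adjusted p = 0.0355). The call of Cst7 ended without AT-II day 2 replicate 1, the averaged day 2 sample or AT-II day 4 replicate 1 or 3 (adjusted p = 0.0679 to 0.168). That of Ncf4 held only without AT-II day 2 replicate 4 (otherwise adjusted p = 0.0598 to 0.216). Antioxidant genes were among the falls and also among the rises. Gsr, glutathione reductase, stood at 9.82, 10.11 and 9.80 and then at 9.09, 9.38, 9.10 and 9.41 (-0.66 ± 0.14, adjusted p = 0.0162). Its call ended without AT-II day 2 replicate 1 (adjusted p = 0.0534), the averaged day 2 sample (adjusted p = 0.118) or AT-II day 4 replicate 1 or 3 (adjusted p = 0.0666 and 0.0586). Sod1, the copper and zinc superoxide dismutase, stood at 10.84, 10.65 and 10.49 and then at 10.12, 10.16, 10.20 and 10.21 (-0.49 ± 0.12, adjusted p = 0.0319). Its call held only without AT-II day 2 replicate 4 (adjusted p = 0.0598 to 0.224 without any other sample). In the antioxidant, haem and iron list of 40 genes 3 fell, these and Hebp1, a haem-binding protein, and 2 rose (median -0.28). These shares were 7.5% and 5%, against 0.203% and 3.13% of all genes. Those that rose were the glutathione peroxidase genes Gpx7 (1.58 ± 0.33, adjusted p = 0.0143) and Gpx3 (1.12 ± 0.29, adjusted p = 0.0431). The call of Gpx7 ended without AT-II day 2 replicate 1, the averaged day 2 sample or AT-II day 4 replicate 1 (adjusted p = 0.119, 0.0547 and 0.0549). That of Gpx3 held only without AT-II day 4 replicate 2 (otherwise adjusted p = 0.0794 to 0.187). The fall of Hebp1 (-0.79 ± 0.17, adjusted p = 0.0173) did not pass without AT-II day 2 replicate 1, the averaged day 2 sample or AT-II day 4 replicate 3 (adjusted p = 0.129, 0.0728 and 0.0554). Of 46 respiratory chain and mitochondrial genes 2 (4.35%, against 0.203% of all genes) fell and 0 rose (median -0.09). Those that fell were Tspo, the translocator protein of the outer membrane, and Fis1, which acts in mitochondrial fission. Tspo stood at 9.73, 9.36 and 9.22 and then at 8.49, 8.76, 8.50 and 8.38 (-0.91 ± 0.18, adjusted p = 0.00837), and its call ended without AT-II day 2 replicate 1 (-0.76, adjusted p = 0.0786). That of Fis1 (-0.85 ± 0.19, adjusted p = 0.0195) ended without AT-II day 2 replicate 1, the averaged day 2 sample or AT-II day 4 replicate 1 or 4 (adjusted p = 0.0605, 0.111, 0.0737 and 0.0589).

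The genes of the mitotic and DNA replication lists differed in 1 direction without passing. In the mitotic list 0 of 36 differences were above 0 and in the DNA replication list 0 of 38, against 6942 of all 17245 genes, with medians of -0.43 and -0.48 and 0 genes passing in limma. At an unadjusted p under 0.05, 11 mitotic genes (30.6%) and 21 replication genes (55.3%) were lower, against 4.79% of all genes. Leaving out single samples moved these medians between -0.63 and -0.34 and between -0.61 and -0.38. Cdk1, the kinase that drives entry into mitosis, stood at 9.48, 9.39 and 9.03 at day 2 and at 8.97, 8.50, 8.45 and 9.02 at day 4 (-0.57 ± 0.20, adjusted p = 0.178). Mcm3, a subunit of the replicative helicase, stood at 9.34, 9.19 and 8.76 and then at 8.55, 8.33, 8.37 and 8.58 (-0.64 ± 0.22, adjusted p = 0.171). In both genes the days did not overlap, by a narrow margin in Cdk1, and 7.63% of all genes were separate with day 4 below. The mean level of the mitotic list was 9.05, 9.08 and 8.56 in the day 2 samples and 8.11 to 8.74 at day 4. That of the DNA replication list was 8.84, 8.72 and 8.35, then 7.94 to 8.4. In both lists day 2 replicate 4 lay within the range of day 4. The 33 hypoxia and glycolysis genes had a median of -0.25, with 0 passing in limma and 6 (18.2%) lower at an unadjusted p under 0.05.

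The same interval on the AT-I surface, with 4 samples at each day from the same rats, served to ask whether the course on AT-II differed. On AT-I 1525 genes were higher at day 4 (8.84%) and 458 lower (2.66%). Of the genes that rose on AT-II, 505 also rose on AT-I, which is 93.5% of the AT-II list and 33.1% of the AT-I list. Of those that fell on AT-II 22 also fell on AT-I, 62.9% of one list and 4.80% of the other. The difference between the 2 time courses was tested for each gene in limma, and 0 of 17245 genes passed (smallest adjusted p = 0.924), with 707 genes (4.10%) at an unadjusted p under 0.05. That fit held no term for the rat and treated the samples of the surfaces as independent, although each rat carried both surfaces. Dmp1 rose by 3.46 ± 0.36 on AT-I, a difference between the surfaces of 0.08 ± 0.53, and Runx2 by 1.27 ± 0.17, a difference of 0.07 ± 0.25. The medians of the small leucine-rich proteoglycan list were 1.37 on AT-II and 1.75 on AT-I, those of the osteocyte list 0.57 and 0.33, and those of the collagen modification list 0.89 and 1.11. Rhbdl2 rose by 2.19 ± 0.19 on AT-I and by 0.58 ± 0.28 more on AT-II (unadjusted p = 0.0567 in limma). Wnt10b differed by 0.24 ± 0.12 on AT-I, 0.43 ± 0.18 less than on AT-II (unadjusted p = 0.0296, adjusted p = 0.924).

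Some lists with 0 genes passing on AT-II had passing genes on AT-I. The inflammatory list had 9 genes lower on AT-I with a median of -0.99, the interferon list 3 with -0.44 and the hypoxia and glycolysis list 6 with -0.35. Isg15, an interferon-induced ubiquitin-like protein, differed by -2.02 ± 0.40 on AT-I and by -0.77 ± 0.43 on AT-II, a difference of 1.25 ± 0.59 between the courses (unadjusted p = 0.0496, adjusted p = 0.924). Egln3, an oxygen-sensing hydroxylase, differed by -1.43 ± 0.32 and -0.72 ± 0.35 (difference 0.71 ± 0.47). In other such lists, 4 endothelial and 2 osteoclast markers and 1 lysosome gene were higher on AT-I, and 2 macrophage and 2 skeletal muscle markers were lower there. The mitotic and DNA replication medians were -0.04 and -0.18 on AT-I. Cdk1 differed by -0.18 ± 0.18 there, 0.39 ± 0.27 from the AT-II value (unadjusted p = 0.173). None of these differences between surfaces passed after adjustment, which does not show that the courses were alike.

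**Figure D5:**
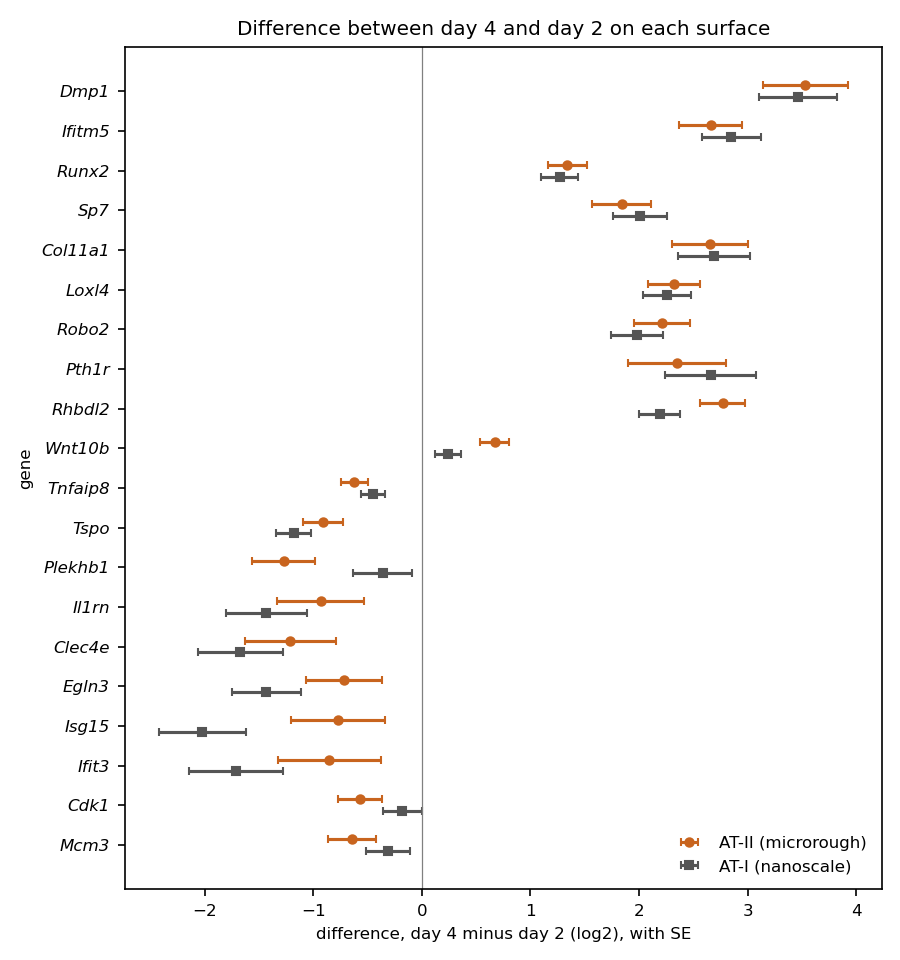
Difference between day 4 and day 2 (horizontal axis, log2, with SE) for 20 genes on AT-II (orange circles) and on AT-I (grey squares). Dmp1 reads 3.53 on AT-II and 3.46 on AT-I, while Isg15 reads -0.77 on AT-II and -2.02 on AT-I.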

How the data were processed

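Expression was measured on Affymetrix Rat Gene 1.1 ST arrays, 1 per sample. The submitters' processing notes name RMA and the program Affymetrix Expression Console, and the deposited values were taken as the log2 levels that RMA, with its background correction and quantile normalization, gives. No source used here gives versions or the genome build of the annotation. Rows naming a single gene were kept, with the brightest row per gene, which gave 17245 genes. Linear models were fitted with limma 3.58.1 in R 4.3.3 to 15 samples of all 4 groups, with AT-II day 2 arrays 2 and 3 averaged, and p-values were adjusted by Benjamini-Hochberg over all genes, with a threshold of 0.05. SE values are limma's and tests are two-sided. By the design given in the labels, samples of a group came from different rats. Whether AT-II day 2 arrays 2 and 3 came from separate rats was not tested. On simulated data for this comparison (5 simulations, 200 of 17245 genes changed), 76% of changes of 2-fold and 97.2% of changes of 4-fold were recovered, with 4.7% false calls. The simulated noise was independent between genes. It held no shift of a sample shared by many genes, so these rates need not hold for the real samples.

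Genes named singly were those with the largest changes among genes whose days did not overlap and a fixed number from each of 42 lists, with defining cell markers. The comparison, lists and genes were chosen with earlier results of these data known. Motifs were counted in RefSeq promoter windows. Alternatives were other array handling, normalization, weights, row summaries, filters, a replicate block and leaving out each sample.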

Additional observations from a re-analysis of the deposited data

Results flagged for a closer look

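Among the 161 groups of 4 day 4 values examined for a sample far from the other 3, 5 stood out by Dixon's criterion, and chance flags about 1 in 20 groups. The mean level of the inflammatory list read 8.10 for AT-II day 4 replicate 4, and the other day 4 samples lay between 7.40 and 7.52. Creb3l1 was lowest in AT-II day 4 replicate 4, at 9.71. Slc13a5 was lowest in that replicate too, at 9.47. Tnfaip8 was lowest in AT-II day 4 replicate 2, at 9.33, against 9.47 in each of the others. Hbb was lowest in the same replicate, at 13.25. Day 2, with 3 samples, was not examined in this way.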

How the results depend on the processing

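Leaving out single AT-II samples moved the count of genes that differed between 223 and 609 (575 with all), the rises between 219 and 568 and the falls between 4 and 41. Without the averaged day 2 sample these counts were 294, 289 and 5. The other 13 settings kept the rises within 1.5 times of 540, except array weights, which gave 919 rises, 309 falls and 1228 genes in all. The falls were 109 with all 16 arrays counted separately, 53 with AT-II samples alone, 141 with arrays centred, 55 with quantile normalization repeated and 154 with the interquartile range as covariate. With a replicate block, the falls were 69 where the averaged sample was numbered 3 and 40 where it was numbered 2, with 526 and 554 rises. The numbers do not pair the samples: the days used different rats, and deviations of same-numbered samples correlated at -0.13 to -0.41. Outside the leave-one-out fits, Wnt10b and Alpl lost their calls with centred arrays (adjusted p = 0.0535 and 0.0606), Ackr3 with centred arrays (adjusted p = 0.0821) or repeated quantile normalization (adjusted p = 0.105), Sod1 with AT-II alone (adjusted p = 0.0602) or the replicate block with the averaged sample numbered 2 (adjusted p = 0.0526), and Stfa2l1 with AT-II alone (adjusted p = 0.0721), array 2 alone (adjusted p = 0.0540) or either block (adjusted p = 0.0927 and 0.0929). Acan and Sox9 lost their calls with centred arrays (adjusted p = 0.0634 and 0.0758) or repeated quantile normalization (adjusted p = 0.147 and 0.109). Gpx3 lost its call with centred arrays (adjusted p = 0.0667). Ctsk passed in 6 of the 13 (adjusted p = 0.00717 to 0.0463). Of 840 list medians, 29 in 17 lists moved by more than their spread, among them the secretory median, -0.07 with centred arrays. The difference between the surfaces gave 0 genes wherever it could be fitted. The causes were not tested.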
